A study of Homo sapiens with 9 samples.

Results

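A set of 10 nuclear genes that keep mitochondrial proteins folded or degrade them were followed across control, melanosome-laden and glabridin-treated human keratinocytes. They were chosen by symbol as genes of the mitochondrial unfolded protein response, and comprise HSPD1, HSPE1, HSPA9, TRAP1, LONP1, CLPP, CLPX, YME1L1, OMA1 and ATF5. These are 10 of 20263 genes in the deposited count table, and all 10 were among the 13912 genes that passed the filter on low counts. The cells were HaCaT, an immortalised line of human epidermal keratinocytes, and mRNA was sequenced from 9 libraries in 3 groups of 3. Control libraries are titled Blank and labelled WT. The melanosome group had received melanosomes, the pigment organelles that melanocytes hand on to keratinocytes. The third group had received melanosomes and glabridin, an isoflavan of licorice root, and is called the glabridin group below. It carries both agents, no group with glabridin alone was analysed here, and no source used here gives a dose, a duration or the melanosomes' origin. Per its design text, the study asks how glabridin promotes melanosome breakdown. The labels do not say whether replicates were separate cultures, so the p-values cover only variation among these libraries, possibly technical.

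Most mitochondrial proteins are made in the cytosol and imported unfolded. In the matrix, the Hsp70 protein mortalin (HSPA9) pulls them in and the chaperonin Hsp60 (HSPD1), capped by its cochaperonin Hsp10 (HSPE1), folds them, while the Hsp90 relative TRAP1 acts on a narrower set of clients. Damaged matrix proteins are degraded by the ATP-dependent protease LONP1 and by ClpXP, in which the unfoldase CLPX feeds substrates to the peptidase CLPP. YME1L1 and OMA1 are metalloproteases of the inner membrane and both cut the fusion protein OPA1. ATF5 is a transcription factor that has been described as an inducer of the mitochondrial unfolded protein response in mammals, alongside ATF4 and DDIT3 (CHOP) of the integrated stress response.

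Sequences before annotated starts of the genes were searched for short motifs, and a link between motifs and the direction of change was not tested. RefSeq windows of 250 bases before the start (GRCh38.p14) matched 8 of the 10 genes in 12 windows; CLPP and YME1L1 had no entry. The E-box letters CACGTG read the same on both strands. They occurred in 6.34% of 35116 windows of the same length and in 4 of the 12 windows, before a RefSeq start of 4 genes. These were HSPD1 and HSPE1, which are divergent neighbours and share a single copy, HSPA9 and LONP1. The 30 bases around each E-box are shown 5′ to 3′ on the minus strand, with the E-box in capitals.
HSPD1 and HSPE1, chr2:197500345-197500374: cggccctggcgaCACGTGaaaaaatcaccc
HSPA9, chr5:138575403-138575432: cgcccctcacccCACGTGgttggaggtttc
LONP1, distal copy, chr19:5720341-5720370: ctcacagccttcCACGTGaccggaaaaggc
LONP1, proximal copy, chr19:5720178-5720207: cgcgccgggcgtCACGTGcgtttcgcggcg
Counted from these RefSeq starts, the copies lay at -88 to -83 for HSPD1, -22 to -17 for HSPE1, -19 to -14 for HSPA9, and -212 to -207 and -49 to -44 for LONP1. All of them lie inside the GENCODE spans of their genes given below, so not upstream of every annotated start.

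Each of the other motifs found occurred before a start of a single member. The heat shock element core, searched as GAANNTTC and TTCNNGAA, was present in 11.6% of all windows and, among the members, only upstream of a second HSPD1 start. There it formed 3 overlapping copies from -245 to -228, also inside the HSPD1 span, shown in capitals on the minus strand.
HSPD1, chr2:197500061-197500090: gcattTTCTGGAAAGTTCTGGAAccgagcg
The cAMP response element TGACGTCA, found in 1.65% of all windows on either strand, lay at -94 to -87 of TRAP1. It is in capitals in the stretch upstream of every annotated exon of that gene.
TRAP1, chr16:3717598-3717774, minus strand: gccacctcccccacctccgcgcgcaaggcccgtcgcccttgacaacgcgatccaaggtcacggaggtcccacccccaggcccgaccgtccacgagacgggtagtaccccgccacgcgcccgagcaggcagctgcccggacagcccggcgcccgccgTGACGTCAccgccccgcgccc
CLPX is shown as the only member called lower with melanosomes that had a window. TRAP1, which rose, also had no E-box in its window. The CLPX window held a CCAAT box (CCAAT, on either strand, in 32.0% of all windows), read here as ATTGG in capitals at -193 to -189, and no E-box.
CLPX, chr15:65185343-65185592, minus strand: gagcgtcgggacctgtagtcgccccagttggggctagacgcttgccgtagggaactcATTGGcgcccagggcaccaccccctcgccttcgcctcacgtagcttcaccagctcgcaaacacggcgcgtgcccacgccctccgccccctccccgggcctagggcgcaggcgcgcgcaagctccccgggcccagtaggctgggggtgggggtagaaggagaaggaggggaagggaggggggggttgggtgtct
TGATGNAA, the letters of the C/EBP-ATF composite element, occurred in 3.14% of all windows and in none of the members' 12. None of the motifs searched occurred in the windows of OMA1 and ATF5. A match describes the letters in these windows, and factor binding was not measured.

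Depth was even, with 39653425 to 46690787 counts per library. The glabridin replicates differed from one another more than those of other groups, with a chi-square per gene of 31.4 to 104 against 3.19 to 5.42 in control and 4.44 to 14.4 in the melanosome group. Should each pair have counted as 2 reads, which is not known, these values overstate the difference from sampling noise. The widest gap was between glabridin replicates 2 and 3, and across 13907 genes their log2 ratio rose with transcript GC content (Spearman rho 0.52). Keratinocyte markers (12 of 12) had counts in every group. They summed to 11800 to 11993 CPM (counts scaled to library size) in control, 9660 to 10402 with melanosomes and 7181 to 9647 with glabridin. KRT5 and KRT14 were the largest parts of each sum. KRT1 went from 7.37 to 8.55 CPM in control to 0.368 to 0.938 with melanosomes and 0.0449 to 0.0876 with glabridin. IVL went from 111 to 116 CPM to 31.6 to 36.0 and then 3.79 to 4.75. KRT10 went the other way, from 29.3 to 33.3 CPM in control and 27.6 to 31.9 with melanosomes to 88.7 to 91.8 with glabridin. Of the 12, 8 were called lower and 1 higher with melanosomes, and 5 lower and 4 higher (KRT10, KRT17, DSG3, SFN) from there to glabridin. Over all tested genes, 33.0% were called lower and 29.5% higher with melanosomes, and 20.2% lower and 23.7% higher from there to glabridin. Melanocyte markers (14 genes) summed to 8.30 to 9.42 CPM in control, where TYR, TRPM1, OCA2, KIT and S100B were at 0, to 3142 to 3276 CPM with melanosomes and to 1735 to 3455 CPM with glabridin. PMEL was the largest part of the sum with melanosomes (2037 to 2167 CPM) and with glabridin (1063 to 2361 CPM). All 14 were called higher with melanosomes, among them SOX10 (0 to 0.0452 CPM in control, then 111 to 121) and MITF (4.65 to 5.04, then 91.6 to 111). From there to glabridin 5 were called lower (DCT, MLANA, MITF, OCA2, EDNRB) and none higher. Fibroblast markers (10 genes) summed to 11.5 to 12.5 CPM in control, 19.7 to 21.5 with melanosomes and 17.3 to 22.4 with glabridin. TWIST1 (0.271 to 0.550 CPM in control, 6.05 to 6.66 with melanosomes) and LUM (0.0904 to 0.481, then 2.72 to 3.37) rose. COL1A1 (8.85 to 10.6, then 8.82 to 10.9) overlapped and COL3A1 fell (1.37 to 1.38, then 0.563 to 0.783). COL1A2, PDGFRA, PDGFRB, THY1, FAP and POSTN were at most 0.223 CPM in any library, with PDGFRB at 0 in control. Immune markers (8 genes) summed to 67.6 to 71.7 CPM in control, 72.3 to 80.7 with melanosomes and 107 to 122 with glabridin. Most of that sum was CD68, at 51.9 to 54.6 CPM in control and 102 to 114.5 CPM with glabridin, while HLA-DRA went from 9.22 to 9.77 CPM down to 0.898 to 1.86 CPM, and PTPRC was at 0 in all groups. The part of RNA from other cell types in the results below was not tested. Mitochondrially encoded genes took a share of counts of 3.48% ± 0.128 (SD, n = 3) in control, 2.59% ± 0.0754 with melanosomes and 1.66% ± 0.180 with glabridin.

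Melanosome-laden cells held more transcript of the matrix chaperones and of LONP1 and CLPP than control cells, and less of CLPX and YME1L1. Of the 10 genes, 6 rose (HSPD1, HSPE1, HSPA9, TRAP1, LONP1, CLPP), 2 fell (CLPX, YME1L1) and 2 were not called (OMA1, ATF5), at an adjusted p under 0.05 by edgeR's quasi-likelihood test. The background was high: 62.5% of all tested genes were called, 29.5% as higher and 33.0% as lower. The median log2 change of the members was 0.29, against -0.06 over all tested genes. In 9 of the 10 the libraries of the groups did not overlap, as in 76.1% of all tested genes. In bulk RNA, fewer cells of a type and less RNA per cell cannot be told apart.

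With glabridin on top of melanosomes, HSPA9, LONP1, CLPP and YME1L1 rose and CLPX fell, so 5 of 10 were called. Over all tested genes 43.9% were called, 23.7% as higher and 20.2% as lower, and the members' median log2 change was 0.09 against 0.01. Libraries did not overlap in 4 members, a share close to the 50.2% of all tested genes. Set against control, the glabridin group had 6 members higher (the same 6 that rose with melanosomes) and 2 lower (CLPX, OMA1). That background was 70.3% called, 37.6% as higher and 32.7% as lower, with 9 members not overlapping against 73.2% of all tested genes, and medians of 0.34 and 0.03. The 3 comparisons share libraries and are not independent of each other.

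**Figure D1:**
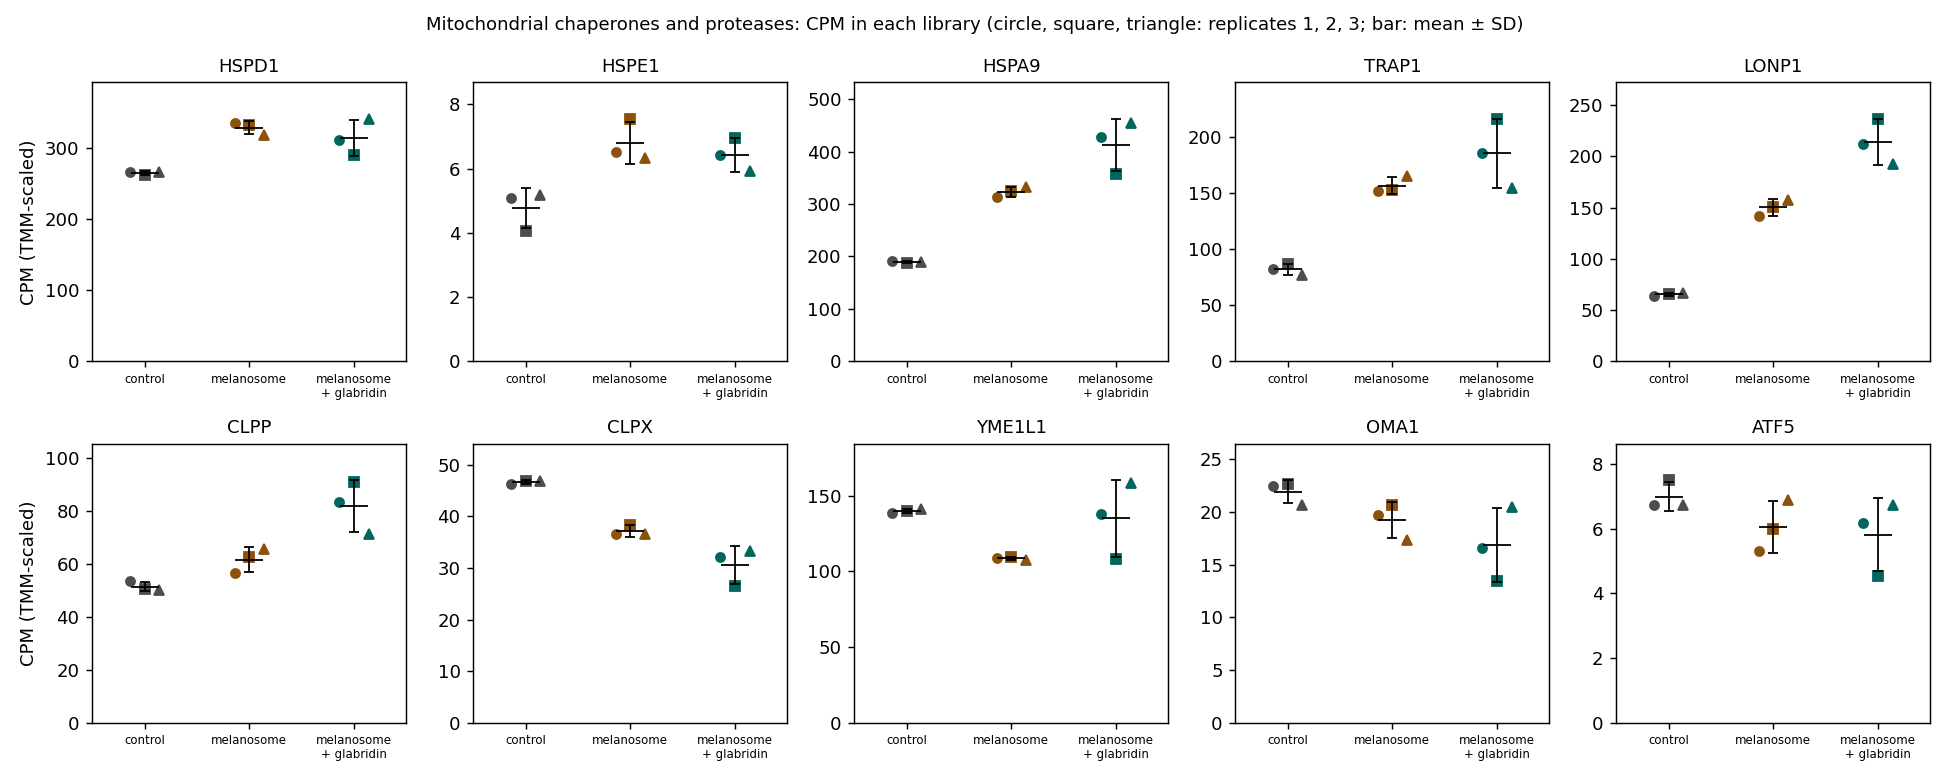
CPM of the 10 genes in each of the 9 libraries (y axis, linear, from 0) by group (x axis), with symbols for replicates 1 to 3 and bars for the mean ± SD of 3 libraries. LONP1 climbs from 63.9 to 66.4 CPM in control to 192 to 237 CPM with glabridin, while CLPX descends from 46.3 to 47.0 CPM to 26.5 to 33.4 CPM.

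HSPA9 showed the clearest stepwise rise among the chaperones. It stood at 191, 188 and 189 CPM in control replicates 1 to 3, at 313, 324 and 332 CPM with melanosomes, and at 428, 357 and 454 CPM with glabridin. No library of one group overlapped another group, and glabridin replicate 2 was the lowest of its group. The log2 change was 0.77 ± 0.08 (SE) with melanosomes (adjusted p = 1.39e-05, edgeR) and a further 0.35 ± 0.08 with glabridin (adjusted p = 0.00449). Against control, the glabridin group was 2.19-fold higher (log2 1.13 ± 0.08, adjusted p = 4.90e-07). The rise from the melanosome to the glabridin group was lost in 3 of 20 alternatives: it was 0.16 with limma on log2(TPM + 1) (adjusted p = 0.22), 0.18 with no scaling factors (adjusted p = 0.117) and 0.23 without glabridin replicate 1 (adjusted p = 0.0546).

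HSPD1 and HSPE1, partners in the folding chamber, rose with melanosomes and were not called between the melanosome and glabridin groups. HSPD1 measured 266, 262 and 266 CPM in control, 335, 333 and 319 CPM with melanosomes, and 312, 290 and 342 CPM with glabridin. All 6 melanosome-exposed libraries lay above control, and the glabridin libraries spanned the melanosome ones. Its log2 change was 0.31 ± 0.06 with melanosomes (adjusted p = 0.00152) and -0.06 ± 0.06 from there to glabridin (adjusted p = 0.442). The latter was called lower in 4 of 20 alternatives: no scaling factors (-0.24, adjusted p = 0.0198), upper-quartile factors (-0.18, 0.0334), limma on log2(TPM + 1) (-0.25, 0.0347) and the GC trend removed (-0.10, 0.0398).

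HSPE1 counted far fewer reads, at 5.09, 4.07 and 5.17 CPM in control, 6.51, 7.55 and 6.32 CPM with melanosomes, and 6.42, 6.96 and 5.91 CPM with glabridin. Again all 6 exposed libraries lay above the 3 control libraries. The log2 change was 0.51 ± 0.13 with melanosomes (adjusted p = 0.00646) and 0.43 ± 0.13 between glabridin and control (adjusted p = 0.0133). The glabridin difference from control lost its call without control replicate 2, the lowest library (log2 0.33, adjusted p = 0.0599). GENCODE names 26 pseudogenes of HSPE1 and 17 of HSPD1, none of them in the count table, so reads shared with those copies make both levels uncertain. Exon sequence that HSPE1 shares with HSPE1-MOB4 on the same strand adds to the uncertainty of its level.

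TRAP1 rose by the second largest amount of all 10 genes in the melanosome group. Its levels were 81.9, 86.9 and 77.4 CPM in control, 152, 153 and 165 CPM with melanosomes, and 185, 216 and 154 CPM with glabridin. Control stood apart, while glabridin replicate 3 fell among the melanosome libraries. The log2 change with melanosomes was 0.93 ± 0.11 (adjusted p = 3.08e-05). Between the melanosome and glabridin groups it was 0.24 ± 0.11 and not called (adjusted p = 0.0874), and 0.36 without glabridin replicate 3, where it was called (adjusted p = 0.0018).

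LONP1, the Lon protease, had the largest rise of the 10 genes in all 3 comparisons. It measured 63.9, 66.0 and 66.4 CPM in control, 142, 151 and 158 CPM with melanosomes, and 212, 237 and 192 CPM with glabridin. The 3 groups formed 3 separate ranges. Its log2 change was 1.20 ± 0.08 with melanosomes (2.29-fold, adjusted p = 4.63e-07) and 0.51 ± 0.08 from there to glabridin (1.42-fold, adjusted p = 0.000413). The difference from control reached 1.71 ± 0.08 with glabridin (3.27-fold, adjusted p = 2.26e-08). LONP1 passed the threshold in each comparison under all 20 alternative settings.

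The ClpXP subunits moved apart. CLPP, the peptidase, measured 53.5, 50.6 and 50.4 CPM in control, 56.7, 62.8 and 65.6 CPM with melanosomes, and 83.3, 91.0 and 71.4 CPM with glabridin. CLPX, the unfoldase, measured 46.3, 46.8 and 47.0 CPM in control, 36.6, 38.4 and 36.5 CPM with melanosomes, and 32.1, 26.5 and 33.4 CPM with glabridin. For both genes the 3 groups occupied separate ranges, ascending for CLPP and descending for CLPX. CLPP changed by 0.26 ± 0.09 on the log2 scale with melanosomes (adjusted p = 0.0302) and by 0.41 ± 0.09 from there to glabridin (adjusted p = 0.00471). CLPX changed by -0.33 ± 0.09 (adjusted p = 0.00771) and by -0.28 ± 0.09 (adjusted p = 0.0259) in the same comparisons. Between glabridin and control the changes were 0.67 ± 0.09 and -0.61 ± 0.09 (adjusted p = 7.79e-05 and 0.000111), called under all 20 alternatives. The melanosome call of CLPP was lost without control replicate 2 or 3 or melanosome replicate 2 or 3 (adjusted p from 0.0848 to 0.111), and its glabridin call without glabridin replicate 1 (0.31, adjusted p = 0.0649). The melanosome call of CLPX was lost with no scaling factors (-0.16, adjusted p = 0.170) and limma on log2(TPM + 1) (-0.14, adjusted p = 0.272), and its glabridin call without any 1 melanosome replicate or with only those 2 groups fitted (adjusted p from 0.0553 to 0.0929).

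A ratio of the 2 counts within a library does not depend on scaling. The log2 ratio of CLPP to CLPX was 0.21, 0.11 and 0.10 in control, 0.63, 0.71 and 0.85 with melanosomes, and 1.38, 1.78 and 1.10 with glabridin. It averaged 0.14 ± 0.06, 0.73 ± 0.11 and 1.42 ± 0.34 (SD, n = 3), and no library overlapped another group. Each 2-sided exact permutation test gave p = 0.1, the smallest that 3 against 3 libraries allow, and 0.1 after adjustment over 9 such comparisons. This pair, and those of HSPD1 and HSPA5 to HSPA9 below, were picked after their values were seen.

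GC content moved with these results. Transcripts of CLPP and LONP1 are 63.4% and 62.9% GC, those of CLPX and YME1L1 41.3% and 40.6%, and the median of tested genes is 49.3%. Over 13907 genes the melanosome change correlated with GC at a Spearman rho of 0.30, and the glabridin change from melanosomes at -0.02. For glabridin against control the rho was 0.22. With a GC trend removed from each library, the melanosome change of CLPX was -0.05 (adjusted p = 0.507) and that of CLPP 0.14 (still called). The difference between their log2 changes with melanosomes then shrank from 0.59 to 0.20, whereas from the melanosome to the glabridin group it was 0.69 and 0.66. Between glabridin and control that difference shrank from 1.28 to 0.86. The fall of CLPX from melanosome to glabridin was -0.34 with the trend removed, and it was called. The melanosome changes of HSPA9 and HSPD1 went from 0.77 and 0.31 to 0.95 and 0.47 with the trend removed.

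**Figure D2:**
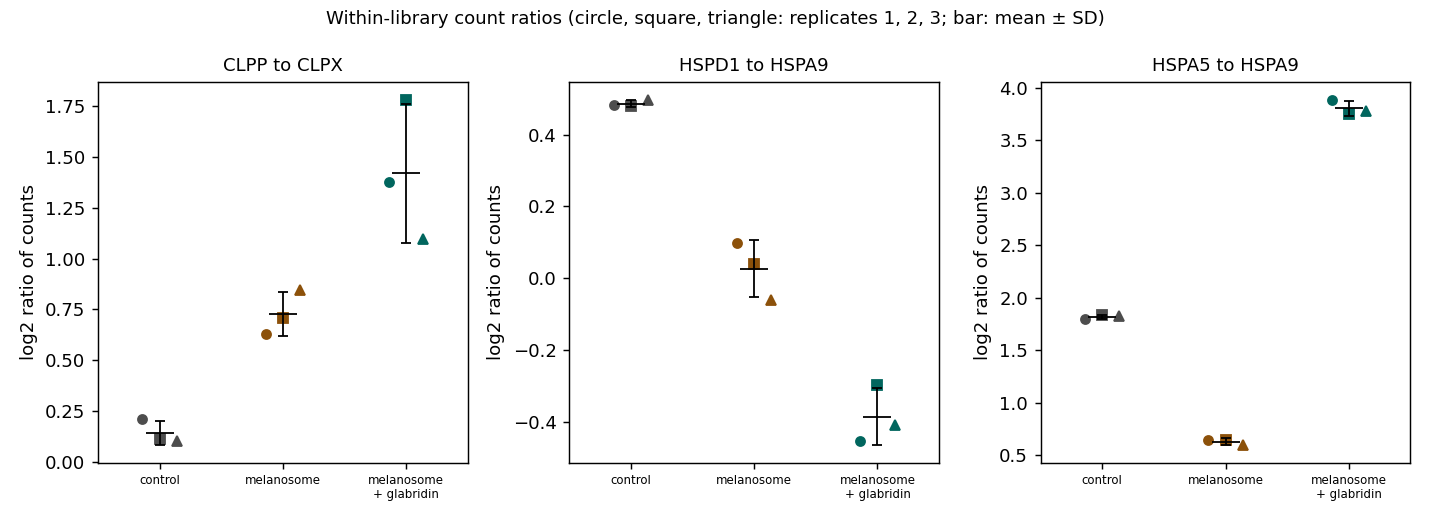
Log2 ratio of the counts of 2 genes within each library (y axis, not starting at 0) by group, with symbols for replicates 1 to 3 and bars for the mean ± SD of 3 libraries. CLPP to CLPX steps up from 0.14 to 0.73 to 1.42, HSPD1 to HSPA9 steps down from 0.49 to 0.03 to -0.39, and HSPA5 to HSPA9 goes from 1.82 to 0.63 to 3.81.

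At the inner membrane, YME1L1 fell with melanosomes and varied widely with glabridin. It measured 138, 140 and 141 CPM in control, 109, 109 and 107 CPM with melanosomes, and 138, 108 and 159 CPM with glabridin. Glabridin replicate 2 sat at the melanosome level and replicate 3 above control. The melanosome change was -0.36 ± 0.11 (adjusted p = 0.0143). It was not called with no scaling factors (-0.20, adjusted p = 0.192), with limma on log2(TPM + 1) (-0.18, adjusted p = 0.294) or with the GC trend removed (-0.04, adjusted p = 0.550). From melanosome to glabridin it was 0.31 ± 0.11 (adjusted p = 0.0388) although the libraries overlapped, and 5 of 20 alternatives kept that call. Between glabridin and control the change was -0.05 ± 0.11 (adjusted p = 0.703), and with the GC trend removed it turned to 0.20 (adjusted p = 0.0129).

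OMA1, the stress-activated protease of that membrane, was lower in the glabridin group than in control. Its levels were 22.5, 22.6 and 20.6 CPM in control, 19.7, 20.6 and 17.4 CPM with melanosomes, and 16.6, 13.4 and 20.5 CPM with glabridin. The highest glabridin library lay just under the lowest control library. The log2 change between those groups was -0.38 ± 0.14 (adjusted p = 0.0314), and the call was lost in 6 of 20 alternatives, among them leaving out control replicate 1 or 2 or glabridin replicate 1 or 2 (adjusted p from 0.0563 to 0.0860 over the 6). Neither of the other comparisons was called (-0.19 ± 0.14 each, adjusted p = 0.255 and 0.299).

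ATF5 was low in all groups, and none of its comparisons was called. It measured 6.74, 7.51 and 6.75 CPM in control, 5.31, 5.98 and 6.91 CPM with melanosomes, and 6.17, 4.55 and 6.72 CPM with glabridin. Its log2 changes were -0.21 ± 0.16 with melanosomes (adjusted p = 0.266), -0.06 ± 0.16 from there to glabridin (adjusted p = 0.792) and -0.26 ± 0.16 between glabridin and control (adjusted p = 0.152). Without glabridin replicate 3 the last was -0.38 and called lower (adjusted p = 0.0429), as it was with the GC trend removed (-0.42, adjusted p = 0.0371).

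**Figure D3:**
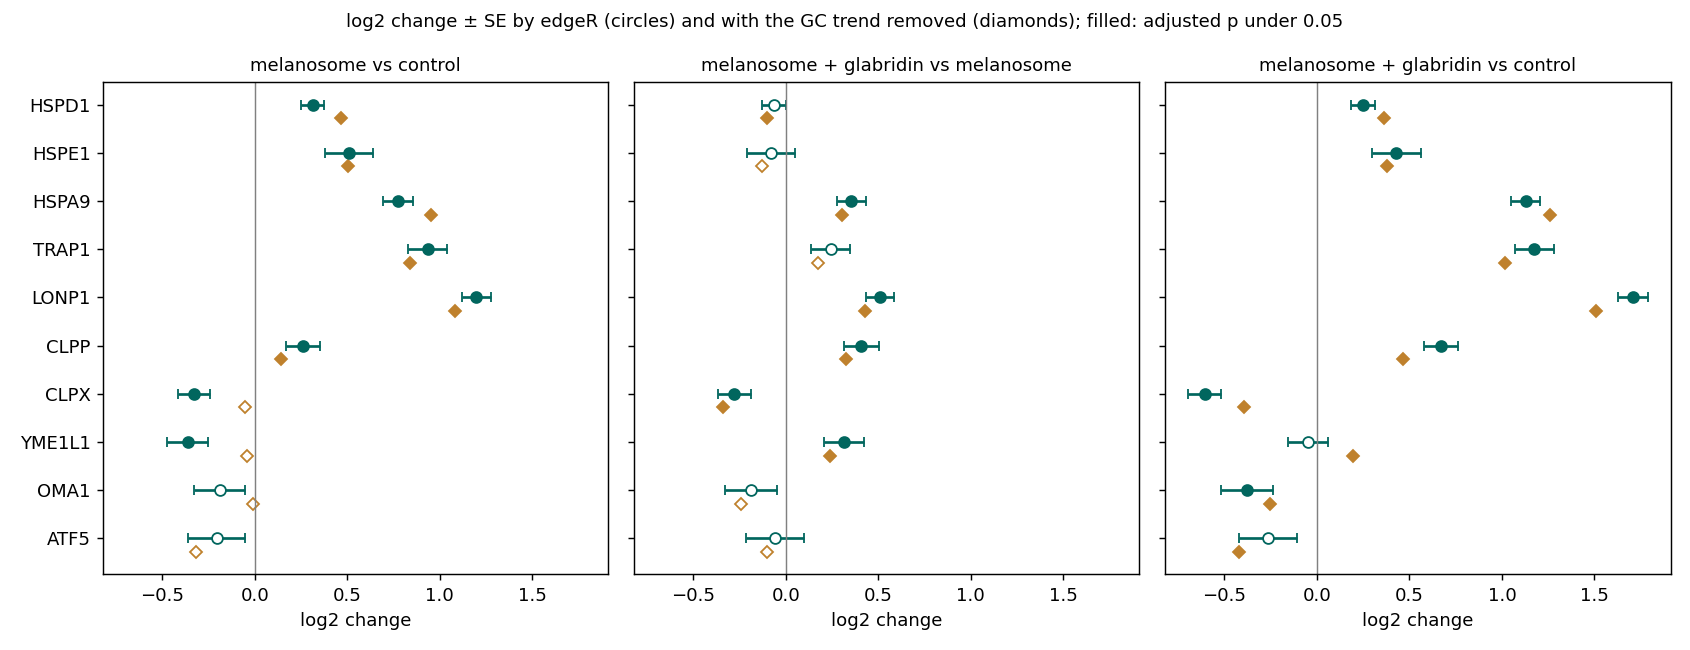
Log2 changes (x axis) of the 10 genes (y axis) in the 3 comparisons by edgeR, with bars for the SE (circles), and the same with the GC trend removed (diamonds); filled symbols have an adjusted p under 0.05. In the first panel CLPX and YME1L1 move from -0.33 and -0.36 to -0.05 and -0.04 when the trend is removed, while LONP1 goes from 1.20 to 1.08.

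Per transcript length, the order of the genes changed between groups. In control, mean TPM (a level scaled to transcript length and library size) ran from HSPD1 (220) through HSPA9 (126), CLPP (110), TRAP1 (53.3), YME1L1 (50.4), LONP1 (47.0), CLPX (24.9), OMA1 (16.9) and HSPE1 (12.1) to ATF5 (6.17), with only TRAP1 and YME1L1 overlapping as neighbours. LONP1 moved up the order with melanosomes, to 122 TPM, past YME1L1 (44.4), where its libraries overlapped those of TRAP1 (115). With glabridin, HSPA9 (275) and HSPD1 (262) overlapped at the top, as did CLPP (174) and LONP1 (153) behind them. HSPD1, HSPA9 and CLPP held the top 3 places in every group and ATF5 the last. The log2 count ratio of HSPD1 to HSPA9 went from 0.49 ± 0.01 in control to 0.03 ± 0.08 with melanosomes and -0.39 ± 0.08 with glabridin (SD, n = 3), without overlap (exact permutation p = 0.1 in each comparison, the smallest possible).

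Across the 9 libraries, log2 levels of TRAP1 and LONP1 correlated at a Pearson r of 0.98, HSPA9 and LONP1 at 0.96, and HSPD1 and HSPE1 at 0.75. CLPX ran against CLPP and LONP1 (both r = -0.95). These values describe libraries that share groups and depth. Among 7879 genes with a mean log2 CPM of at least 4, the nearest pattern to LONP1 was that of GOT1 (r = 0.998), to TRAP1 that of PHC2 (0.998), to HSPA9 that of HMGB2 (0.995), to CLPP that of PRDX5 (0.995) and to CLPX that of RBM5 (0.996). The nearest were SHTN1 for HSPD1 (0.986), NDUFB2 for HSPE1 (0.958), CCNT1 for YME1L1 (0.987), DYNC1I2 for OMA1 (0.973) and MACF1 for ATF5 (0.953).

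Other chaperones and cochaperones of mitochondria were split by melanosomes and rose or were not called with glabridin. Of 9, 4 were higher and 3 lower with melanosomes, with a median log2 change of -0.12. From melanosome to glabridin 6 were higher and none lower (median 0.38), and between glabridin and control 6 were higher and none lower (median 0.51). Over all tested genes, 29.5% were higher and 33.0% lower with melanosomes, 23.7% and 20.2% from there to glabridin, and 37.6% and 32.7% between glabridin and control. CLPB, an intermembrane space disaggregase, measured 17.2, 20.4 and 18.6 CPM in control, 33.2, 32.4 and 32.7 CPM with melanosomes and 45.2, 53.3 and 35.9 CPM with glabridin (log2 0.81 ± 0.13, then 0.45 ± 0.13, both called, the second lost in 4 of 20 alternatives). DNAJA3, a J-domain cochaperone of HSPA9, rose by 0.30 ± 0.07 with melanosomes and 0.40 ± 0.06 from there to glabridin (adjusted p = 0.00233 and 0.00068). GRPEL2, a nucleotide exchange factor for HSPA9, rose 2.10-fold from melanosome to glabridin (1.07 ± 0.19, adjusted p = 0.00122) and DNLZ, which keeps HSPA9 soluble, rose 1.76-fold (0.82 ± 0.11, adjusted p = 0.000249). DNLZ was lower with melanosomes (-0.31 ± 0.12, adjusted p = 0.0356, lost in 13 of 20 alternatives). Between glabridin and control it was 1.42-fold higher (0.51 ± 0.11, adjusted p = 0.00221). BCS1L, the Rieske protein chaperone, rose with melanosomes (0.82 ± 0.11, adjusted p = 9.54e-05) and measured -0.11 ± 0.11 from there to glabridin (adjusted p = 0.432).

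Most of the other mitochondrial proteases, peptidases and their scaffolds were not called with melanosomes or from there to glabridin. Of 18, 4 were higher and 2 lower with melanosomes (median log2 change 0.04), 3 higher and none lower from melanosome to glabridin (0.05), and 5 higher and 3 lower between glabridin and control (0.28). In the same order, the shares over all tested genes were 29.5% higher and 33.0% lower, 23.7% and 20.2%, and 37.6% and 32.7%. PHB1, a prohibitin scaffold of the inner membrane, rose with melanosomes (0.87 ± 0.14, adjusted p = 0.000342), as did the presequence peptidase PITRM1 (0.56 ± 0.09, adjusted p = 0.000264) and STOML2, which binds YME1L1 (0.36 ± 0.10, adjusted p = 0.00802). From melanosome to glabridin PITRM1 measured -0.22 ± 0.09 (adjusted p = 0.0619), and 9 of 20 alternatives called it lower. XPNPEP3, an aminopeptidase, rose from melanosome to glabridin (0.66 ± 0.13, adjusted p = 0.0019). It was lower with melanosomes (-0.38 ± 0.13, adjusted p = 0.0228, lost in 9 of 20 alternatives). Between glabridin and control it was not called (0.28 ± 0.13, adjusted p = 0.0719), though 3 of 20 alternatives called it. LACTB (0.41 ± 0.12) and IMMP1L (0.47 ± 0.16) also rose from melanosome to glabridin, calls lost in 6 and 11 of 20 alternatives. AFG3L2, a subunit of the matrix-facing protease of the inner membrane, measured 0.16 ± 0.08 with melanosomes and -0.08 ± 0.08 from there to glabridin, neither called here, though 10 and 2 of 20 alternatives called them.

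Genes of the stress signalling list had a larger median change with glabridin than the members, and the difference between lists was not tested. Of 12, 5 were higher and 3 lower with melanosomes (median log2 change 0.11), and 11 were higher and none lower from melanosome to glabridin (median 1.39). Among all tested genes, 29.5% were higher and 33.0% lower with melanosomes, and 23.7% and 20.2% from there to glabridin. ATF4 measured 361, 364 and 358 CPM in control, 321, 342 and 330 CPM with melanosomes and 1403, 1302 and 1318 CPM with glabridin. Its change was -0.12 ± 0.05 with melanosomes (adjusted p = 0.0572) and 2.02 ± 0.05 from there to glabridin (adjusted p = 7.03e-09). The melanosome change was called lower in 3 of 20 alternatives, and its sign turned under no scaling factors and on TPM. DDIT3 rose in both steps, by 0.96 ± 0.07 and 2.17 ± 0.07 (adjusted p = 1.07e-06 and 1.37e-08), and CEBPB by 0.81 ± 0.06 and 1.33 ± 0.06. CHAC1, a glutathione-degrading enzyme induced by ATF4, rose by 4.13 ± 0.17 and 1.45 ± 0.13. DELE1, which relays mitochondrial stress to the kinase EIF2AK1 (HRI), fell with melanosomes (-0.60 ± 0.06, adjusted p = 1.96e-05) and rose from there to glabridin (0.38 ± 0.06, adjusted p = 0.000893).

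The endoplasmic reticulum relatives changed in another order of size. Of 8 counterparts in the reticulum and cytosol, 4 were higher and 2 lower with melanosomes, and 4 higher and 3 lower from there to glabridin (medians 0.04 and 0.06). Shares over all tested genes were 29.5% higher and 33.0% lower, then 23.7% and 20.2%. HSPA5 (BiP), the reticulum's Hsp70, measured 661, 669 and 666 CPM in control, 488, 508 and 501 CPM with melanosomes and 6334, 4814 and 6238 CPM with glabridin. It fell with melanosomes (-0.42 ± 0.09, adjusted p = 0.0026), where HSPA9 rose, and was 11.6-fold higher from there to glabridin (3.54 ± 0.10, adjusted p = 1.12e-08), where HSPA9 was 1.28-fold higher. The log2 count ratio of HSPA5 to HSPA9 averaged 1.82 in control, 0.63 with melanosomes and 3.81 with glabridin, with no overlap (exact permutation p = 0.1 in each comparison, the smallest possible). HSP90B1, the reticulum's Hsp90, measured -0.28 ± 0.15 with melanosomes (adjusted p = 0.132) and rose by 1.38 ± 0.15 from there to glabridin (adjusted p = 5.08e-05), while the cytosolic HSP90AA1 fell in both steps (-0.47 ± 0.10 and -0.67 ± 0.10). HSP90AB1 rose by 0.14 ± 0.05 and 0.20 ± 0.05, calls lost in 6 and 7 of 20 alternatives, and the cytosolic Hsp70 HSPA8 rose by 0.24 ± 0.08 (lost in 5 of 20) and then fell (-0.30 ± 0.08, adjusted p = 0.0144). TCP1, a subunit of the cytosolic chaperonin, rose with melanosomes (0.25 ± 0.05) and measured 0.15 ± 0.05 from there to glabridin (adjusted p = 0.0443), a call that held in only 1 of 20 alternatives, with the sign turned under no scaling factors (-0.03) and on TPM (-0.04).

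**Figure D4:**
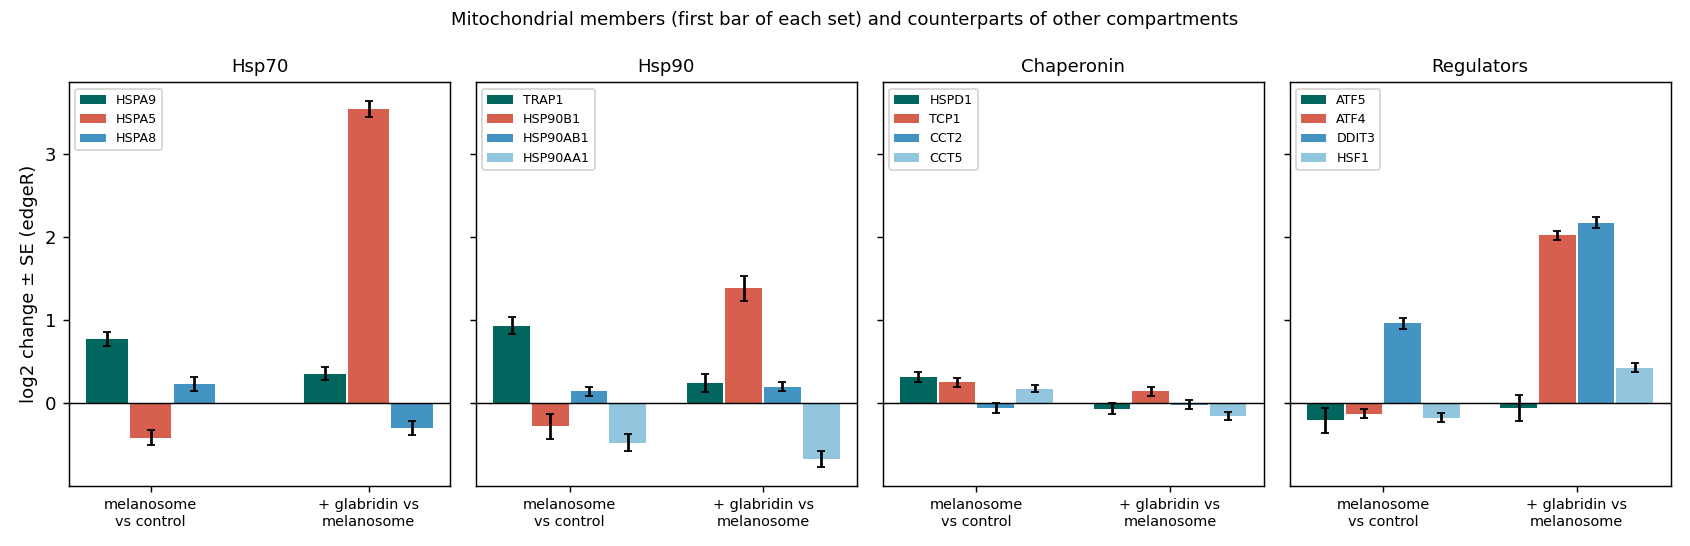
Log2 change ± SE by edgeR (y axis) of mitochondrial genes (first bar of each set) and of their relatives in other compartments, with melanosomes against control and with added glabridin against melanosomes (x axis). HSPA5 rises by 3.54 and ATF4 by 2.02 in the second step, where HSPA9 rises by 0.35 and ATF5 measures -0.06.

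Genes encoded in mitochondrial DNA were mostly lower in both steps. Of 13, 10 fell with melanosomes and none rose (median log2 change -0.46), and 12 fell from melanosome to glabridin (median -0.48). Between glabridin and control all 13 fell (median -1.12). MT-ND2, a complex I subunit, changed by -0.82 ± 0.07 with melanosomes (adjusted p = 3.55e-06), and MT-CYB, cytochrome b of complex III, by -0.67 ± 0.09 and then -1.02 ± 0.09 (adjusted p = 9.88e-05 and 1.05e-05).

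Positions are from GENCODE release 29 on GRCh38. HSPD1 (ENSG00000144381) spans 197486581 to 197516737 on chromosome 2 and HSPE1 (ENSG00000115541) 197499994 to 197503457 on the opposite strand, so their exons overlap. HSPA9 (ENSG00000113013) lies on chromosome 5 from 138553756 to 138575724, and TRAP1 (ENSG00000126602) on chromosome 16 from 3651639 to 3717597. LONP1 (ENSG00000196365) and CLPP (ENSG00000125656) lie on chromosome 19, from 5691834 to 5720572 and from 6361452 to 6368910, and CLPX (ENSG00000166855) on chromosome 15 from 65148219 to 65185342. YME1L1 (ENSG00000136758) lies on chromosome 10 from 27110112 to 27155266, OMA1 (ENSG00000162600) on chromosome 1 from 58415384 to 58546802, and ATF5 (ENSG00000169136) on chromosome 19 from 49928702 to 49933935. Exons on the other strand overlap TRAP1 (DNASE1), LONP1 (RPL36), YME1L1 (MASTL) and ATF5 (IL4I1, NUP62). The libraries were strand-specific per the labels' protocols, but no source used here says whether counting used strand, so reads of these pairs may not be separated. DAB1 shares exon sequence with OMA1 on the same strand, and so does HSPE1-MOB4 with HSPE1. Strand cannot separate reads shared within these pairs. HSPE1-MOB4 had 0 counts in all 9 libraries, and how shared reads were assigned is not known.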

How the data were processed

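Poly(A) RNA of 9 HaCaT libraries was sequenced as strand-specific read pairs, per the labels' protocols, with hg38 as the build in the submitters' processing notes; aligner, counter and annotation: not given in the sources used here. Raw gene counts in whole numbers, and TPM, are the deposited units used; the FPKM values the authors deposited were not used. Of 20263 identifiers, 20148 had a symbol in the reference name table. Among counts of 1 to 49, 69.9% to 72.2% were even. Counting both reads of each pair would leave such an excess; if so, counts overstate fragments and chi-squares between replicates are inflated.

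The test was the quasi-likelihood one of edgeR 4.0.16, run under R 4.3.3 (TMM factors, filterByExpr by group, all 9 libraries in 1 fit, no replicate block), with Benjamini-Hochberg adjustment over 13912 genes and calls at an adjusted p under 0.05. SEs were derived from the F statistic, CPM used TMM-scaled library sizes, and replicates were kept as separate samples, no 2 being identical. The script was run on simulated counts with 200 changed genes and a fixed spread for all genes. That run cannot show how calls behave in these libraries. Deviations of same-numbered libraries correlated with r from -0.529 to 0.185, and those of different-numbered libraries with r from -0.468 to 0.618. As different numbers reached the higher r, these values cannot show whether numbers pair the samples.

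The 10 genes, the gene lists and the naming rule were chosen with earlier results of these data known. All 10 were named; of the other lists, ATF4, DDIT3, HSPA5, HSP90B1, HSPA8 and HSP90AB1, and up to 3 called genes with the smallest p per list and comparison, were open to naming, with the genes most like each member. Genes named beyond this (AFG3L2, DELE1, and second values of listed genes) were chosen after their values were seen. Of the 20 alternatives, removal of a GC trend (lowess of log2 CPM deviation on transcript GC, span 0.3) was added after seeing the data. The others were DESeq2 1.42.0, limma 3.58.1 on log2(TPM + 1), scaling by RLE, by upper quartile or not at all, other filters, a replicate block, 2 groups only, no mitochondrially encoded genes, and leaving out each library. Promoter windows were from RefSeq (GRCh38.p14).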

Additional observations from a re-analysis of the deposited data

How the results depend on the processing

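Of 600 values (10 genes, 3 comparisons, 20 alternatives), 547 kept direction and side of the threshold, 40 lost their call, 8 gained one and 5 changed sign. YME1L1 between glabridin and control turned to 0.20 with the GC trend removed, where it was called; the other 4 came from leaving out 1 library and were not called. Over the libraries left out in turn, YME1L1 there ran from -0.181 to 0.0876, and from melanosome to glabridin HSPE1 ran from -0.1669 to 0.0027 and ATF5 from -0.1962 to 0.0895. Among other named genes, TCP1 from melanosome to glabridin turned to -0.0401 with limma on log2(TPM + 1) and -0.0333 with no scaling factors, and STOML2 to -0.1145 and -0.1016 with these, -0.0304 with upper-quartile factors and -0.0022 without mitochondrially encoded genes. With melanosomes, ATF4 turned to 0.0555 with limma on TPM and 0.0428 with no scaling factors, IMMP1L to 0.0042 with limma on TPM and 0.1039 with the GC trend removed, and GRPEL2 to 0.1394 with the latter. Over single libraries left out, sign also changed for LACTB with melanosomes (-0.0173 to 0.0979), for PHB1 (-0.3252 to 0.0352) and STOML2 (-0.0216 to 0.1888) from there to glabridin, and for HSPA8 between glabridin and control (-0.1675 to 0.0240). The cause was not tested. With melanosomes against control, the 2 genes called lower became 0 with the GC trend removed, with limma on TPM and with no scaling factors. Over all tested genes, lower calls went from 4591 to 4106, 2543 and 2805 at these settings. From melanosome to glabridin, 2 were called lower (in place of 1) with the GC trend removed, limma on TPM, no scaling factors and upper-quartile factors. With limma on TPM and no scaling factors, 2 were called higher (in place of 4). Over all tested genes, lower calls were 3899, 4802, 4573 and 3812 (2810 in the main fit), and higher calls 1829 and 1872 (3301). With only those 2 groups fitted, 3 were called (in place of 5) and 0 lower. That fit called 4970 of 13699 genes, 2484 of them lower, against 6111 of 13912 and 2810 in the main fit. Between glabridin and control, 1 was called lower (in place of 2) with limma on TPM and with only the 2 groups. Lower calls over all genes were 4469 and 4261 there (4549 in the main fit). Leaving out each library in turn gave 2 to 6 members called from melanosome to glabridin, 1 to 4 higher and 0 to 2 lower. Over 14050 to 14077 genes tested, the same fits gave 4838 to 7332 calls, 2037 to 3956 higher and 2196 to 3376 lower. Between glabridin and control, 1 to 3 members were lower, beside 4151 to 5093 of all genes. The fewest members called, 2, came without glabridin replicate 1, where 4921 of 14077 genes were called.

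Scaling moved the balance of calls over all genes. With melanosomes, 47.2% of called genes were higher, against 66.0% with no scaling factors and 68.5% with limma on TPM. From melanosome to glabridin 54.0% were higher, against 29.0% with no scaling factors, 27.6% with limma on TPM, 38.0% with upper-quartile factors and 41.8% without mitochondrially encoded genes. No scaling shifted the median of all genes by 0.17 and -0.18 in these comparisons. The replicate block called 8255, 5523 and 9507 genes (8691, 6111 and 9774 without it) and changed no call among the 10 genes. HSPE1 and ATF5 had the lowest counts of the 10, which limits their precision.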
